A study of Mus musculus with 6 samples.

Results

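The enzymes that write and maintain DNA methylation, with the factors that bring them to newly copied chromatin, were followed in medullary thymic epithelial cells (mTECs) with and without the methyl-CpG binding protein Mbd1. The members were Dnmt1, Dnmt3a, Dnmt3b, Dnmt3l, Uhrf1, Hells, Chaf1a and Chaf1b. They were found as the probes of the authors' deposited array matrix whose Agilent or Ensembl gene symbol equals one of these names. All 8 genes, of 21691 genes named in the matrix, had a probe, and together they had 13 of the 41174 probes. Both symbols named 11 of them, and 2 probes of Dnmt1 carried the name in the Ensembl symbol only.

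The samples were mTECs, epithelial cells of the thymus that show maturing T cells a wide range of self proteins, sorted from mice 30 days old that were either MBD1 KO or MBD1 WT. The sort kept DAPI-negative cells with EpCAM and MHC class II on their surface and left out cells with CD11c, CD45 or Ly51, per the labels' protocols. Amplified, Cy3-labelled RNA was measured on Agilent mouse arrays, with 3 samples of each genotype. Per the series' design text, 4 biological replicates of each genotype were made and 1 of each was removed after quality control. The sources used here do not give the allele, the strain or which cells carry the deletion, nor whether each sample came from 1 mouse or several. The comparison asks how mTEC expression differs without Mbd1.

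DNA methylation at CpG sites is laid down on unmethylated DNA by Dnmt3a and Dnmt3b, and the catalytically inactive Dnmt3l stimulates both, mainly in germ cells. When DNA is copied, Uhrf1 recognises the half-methylated sites and recruits Dnmt1, which copies the pattern to the new strand. Hells is a chromatin remodeller that opens nucleosomal DNA to these enzymes, and Chaf1a and Chaf1b are subunits of the CAF-1 complex that deposits histones behind the replication fork. In human cells MBD1 binds methylated DNA and has been tied to CAF-1, which places Chaf1a near Mbd1 itself.

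RefSeq windows at the starts of these genes (build GRCm38.p6, 250 bases before to 50 bases after each start) were read for all 8 members, 15 windows in all. Genes transcribed with the cell cycle often carry sites for E2F factors, so the letters TTTCCCGC, TTTGGCGC, TTTCGCGC and TTTGCCGC were searched on both strands. They were found in 3 windows of 3 members, Dnmt1, Uhrf1 and Hells, and in 2.26% of the 32851 windows of all genes. These 3 windows are shown because they hold such letters, which stand in capitals in the gene's direction, and the first window of Dnmt3l is shown beside them as a CpG-poor start. The windows are chr9:20952574-20952873 on the minus strand for Dnmt1, and on the plus strand chr17:56304063-56304362 for Uhrf1, chr19:38930740-38931039 for Hells and chr10:78042037-78042336 for Dnmt3l.
Dnmt1: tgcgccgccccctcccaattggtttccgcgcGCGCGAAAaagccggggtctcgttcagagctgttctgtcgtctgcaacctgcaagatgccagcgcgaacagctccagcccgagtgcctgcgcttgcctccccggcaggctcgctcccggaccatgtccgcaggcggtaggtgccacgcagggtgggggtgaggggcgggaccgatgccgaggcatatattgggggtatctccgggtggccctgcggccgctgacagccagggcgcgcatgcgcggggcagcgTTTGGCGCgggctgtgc
Uhrf1: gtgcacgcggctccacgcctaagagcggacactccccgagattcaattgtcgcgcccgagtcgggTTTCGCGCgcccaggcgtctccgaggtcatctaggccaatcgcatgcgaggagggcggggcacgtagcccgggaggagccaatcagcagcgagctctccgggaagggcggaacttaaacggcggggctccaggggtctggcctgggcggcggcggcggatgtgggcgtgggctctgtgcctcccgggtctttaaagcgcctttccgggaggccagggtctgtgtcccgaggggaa
Hells: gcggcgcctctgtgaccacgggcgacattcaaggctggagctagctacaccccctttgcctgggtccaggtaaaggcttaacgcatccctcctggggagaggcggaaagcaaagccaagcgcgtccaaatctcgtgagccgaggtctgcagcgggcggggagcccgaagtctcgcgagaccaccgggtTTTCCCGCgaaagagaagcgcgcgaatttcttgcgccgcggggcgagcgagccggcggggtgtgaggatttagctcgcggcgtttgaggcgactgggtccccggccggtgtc
Dnmt3l: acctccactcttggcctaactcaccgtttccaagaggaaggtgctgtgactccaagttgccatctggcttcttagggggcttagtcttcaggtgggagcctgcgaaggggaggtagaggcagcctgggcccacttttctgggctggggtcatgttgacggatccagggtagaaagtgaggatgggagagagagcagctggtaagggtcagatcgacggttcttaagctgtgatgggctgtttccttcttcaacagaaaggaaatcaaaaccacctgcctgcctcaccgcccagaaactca
The capitals begin at -219 and at 33 in Dnmt1, at -185 in Uhrf1 and at -62 in Hells, counted in bases from the RefSeq start of the window shown. Dnmt1 and Uhrf1 have other RefSeq starts, from which these positions would differ. The first match of Dnmt1 is TTTCGCGC read on the opposite strand. A match describes letters only, and no binding was measured in these samples.

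The members' starts differed in CpG content, which the choice of the 8 genes did not use. It did bear on which windows are shown, since the letters searched contain CpG sites and the Dnmt3l window was picked as CpG-poor. The windows shown held 33 CpG sites for Dnmt1, 33 for Uhrf1 and 34 for Hells, where windows of all genes had a median of 7 and quartiles of 3 and 20. Dnmt3a had the most CpG sites, with 46 and 47 at a pair of neighbouring starts on chromosome 12 and 18 at the other start. Dnmt3b on chromosome 2 had 30, Chaf1a on chromosome 17 had 32 and Chaf1b on chromosome 16 had 30. The 3 windows of Dnmt3l held 6, 4 and 3 CpG sites, all under the median of all windows. Its highest window lay above 43.6% of all windows. The other starts of Dnmt1 held 12 and 2 CpG sites, and the other start of Uhrf1 held 12. Which start mTECs use was not measured.

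**Figure D1:**
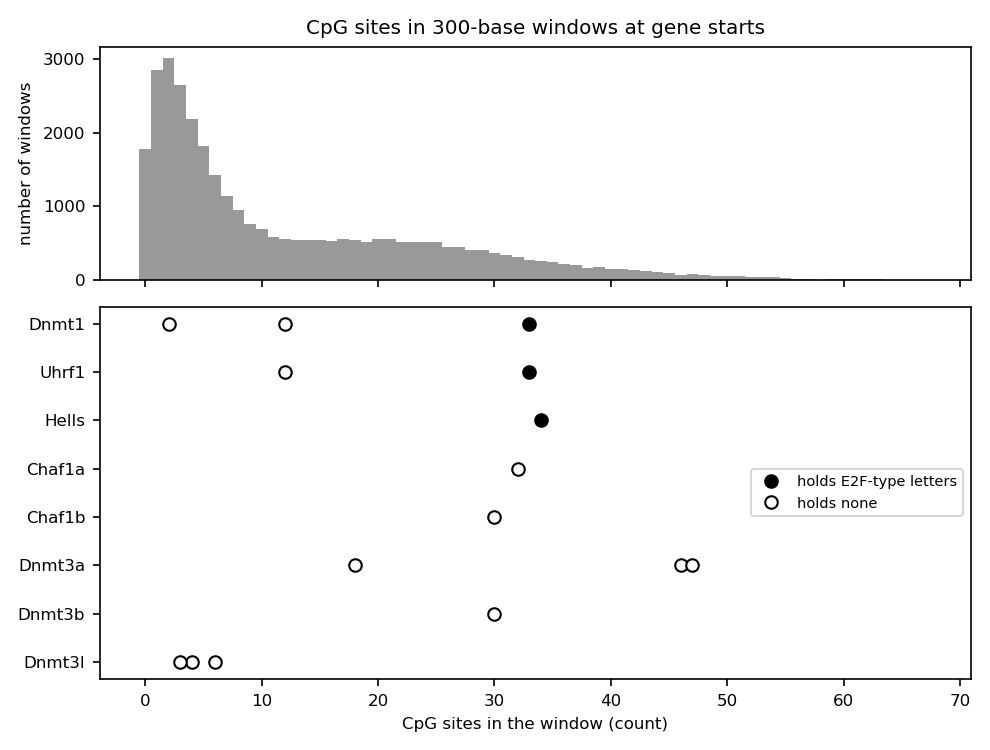
CpG sites (count) in 300-base windows at gene starts, with the number of windows of all genes as grey bars in the upper panel and the members' windows as points in the lower panel. The windows of Dnmt1, Uhrf1 and Hells that hold E2F-type letters (filled points) had 33, 33 and 34 CpG sites, and those of Dnmt3l had 6, 4 and 3.

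The signal is the authors' log2 value per probe, which is brought to a common distribution over the 6 columns (column medians 7.13 to 7.14), and levels of different probes are not set against each other. A background level was taken in each column as the 95th percentile of the 5304 probes that were well above background on none of the arrays, and it lay between 5.50 and 5.67. Testing was limited to probes that the scanner software called well above background on 3 or more of the 6 arrays, a condition met by 12 of the 13 member probes and 7 of the 8 genes. Per array, 73.3% to 80.7% of probes met that mark, and no spot was saturated. Markers of mTECs were measured for 15 of 16 listed genes, among them Aire, Fezf2, Epcam and Krt5, with column medians of 12.67 to 12.74 in KO columns and 12.86 to 13.09 in WT columns.

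Mbd1 itself checks the labels. In the matrix its probe A_51_P143224 had 5.64, 5.61 and 5.60 in the KO columns, against 8.83, 8.60 and 8.999 in the WT columns. The KO columns lay near the background level and the WT columns above it, with a difference of -3.19 ± 0.19 (SE, limma adjusted p = 6.13e-05). Probe A_52_P158923 differed by -2.96 ± 0.19 (adjusted p = 9.00e-05) and the remaining probe by -0.98 ± 0.19 (adjusted p = 0.125), both limma values. Which exons were deleted was not stated, so a probe outside them would check nothing. The titles of the scanner files went against this. Under these titles the first probe had processed intensities of 356, 17.2 and 682 on the arrays titled KO. On the arrays titled WT it had 20.9, 305 and 15.6. In rank over the probes, 5 of the 6 matrix columns equalled one scanner array, in no case one with the matching title and in 4 cases one titled with the other genotype. The sixth, KO_1, equalled none, and every other pairing had rank correlations of 0.945 to 0.984. The array titled MBD1 KO #2 likewise equalled no column. Counts of arrays well above background include that array and hold none matched to KO_1. Taken by matched column, the first Mbd1 probe had 305, 356 and 682 for WT_1, WT_2 and WT_3, and 20.9 and 15.6 for KO_2 and KO_3. The Mbd1 signal of the matched arrays thus went with the column names and against the titles. All results below follow the names of the matrix columns, so their direction rests on those names. With the scanner arrays grouped by their titles instead, 8 of the 12 tested member probes had the opposite sign and none passed the test. Arrays titled KO then include those matched to WT_2 and WT_3, and arrays titled WT those matched to KO_2 and KO_3. Grouping by title thus largely swaps the genotypes of the columns, so turned signs there are no separate check. All arrays titled WT also lie on slide 1 and all titled KO on slide 2. A difference by title therefore cannot be told apart from a difference between slides. The matched arrays put KO_2, KO_3 and WT_1 on 1 slide and WT_2 and WT_3 on another, so each difference is also given within the first slide, as the mean of KO_2 and KO_3 minus WT_1, with no test.

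No member passed the test, which was limma with adjustment over 32235 probes and a threshold of 0.05. All 12 tested member probes had an adjusted p of 1.00 after rounding, where 0.177% of all probes passed, 53 higher (0.164%) and 4 lower (0.0124%) in KO columns. The difference was positive for 10 member probes and negative for 2, with a median of 0.17 against -0.01 over all tested probes, of which 48.2% were positive. One member probe had an unadjusted p under 0.05 in limma, against 3.96% of all probes. Separation of all KO columns from all WT columns was seen for 2 member probes, 1 higher and 1 lower, and for 8.14% of all probes, 4.07% higher and 4.07% lower. The 95% intervals of the differences reached from -0.89 to 1.15 in all, or 0.540-fold to 2.22-fold, and 11 of the 12 contained 0. The samples are sorted bulk cells, in which fewer cells of a type and less RNA per cell cannot be told apart.

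**Figure D2:**
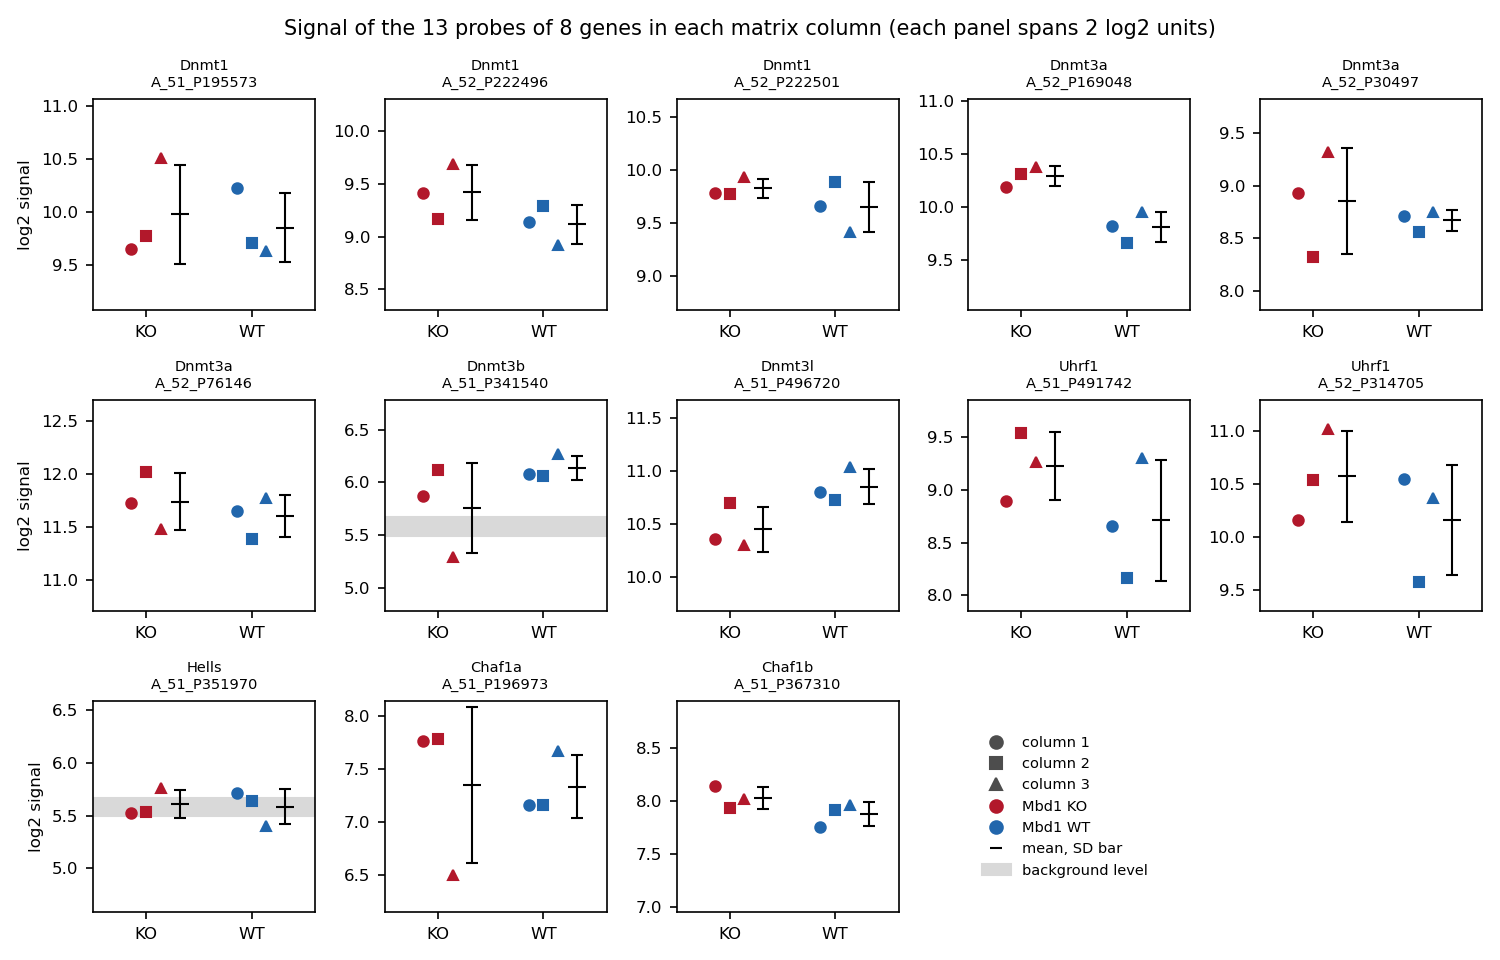
Log2 signal of the 13 member probes in each matrix column, with KO columns left of WT columns, the mean as a bar with its SD (n = 3 each), and the background level shaded. The KO and WT points overlap in all kept probes except A_52_P169048 of Dnmt3a, where KO points lie above, and A_51_P496720 of Dnmt3l, where they lie below.

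Among the de novo enzymes, Dnmt3a had 3 probes. Probe A_52_P169048 read 10.19, 10.31 and 10.38 in KO columns and 9.82, 9.66 and 9.95 in WT columns. Every KO column lay above every WT column. The difference was 0.48 ± 0.19 (SE, 95% interval 0.07 to 0.89), a ratio of 1.40 with an interval of 1.05 to 1.86, and limma gave an unadjusted p of 0.0256 and an adjusted p of 1.00. Within the first slide it was 0.53, and with 1 column left out it lay between 0.41 and 0.55. The other Dnmt3a probes did not separate the groups. Probe A_52_P30497 had 8.93, 8.32 and 9.32 in KO columns, against 8.71, 8.56 and 8.75 in WT columns, a difference of 0.18 ± 0.25. Its KO columns held both the highest and the lowest value. Probe A_52_P76146 had 11.72, 12.01 and 11.48 in KO columns, against 11.65, 11.38 and 11.77 in WT columns, a difference of 0.14 ± 0.21. The 3 probes thus give one gene with 3 positive differences, of which 1 stands clear of overlap. Over the 6 columns they did not track each other closely, with Pearson's r of 0.38, 0.43 and -0.51 between pairs that lie 4.30, 0.578 and 4.94 kb apart in the authors' probe coordinates.

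Dnmt3b, the other de novo enzyme, was dim. Its probe A_51_P341540 had 5.88, 6.11 and 5.29 in KO columns, against 6.08, 6.06 and 6.27 in WT columns. Column KO_3 lay at or below the background level and the groups overlapped. The difference was -0.38 ± 0.23 (95% interval -0.89 to 0.14), and -0.38 within the first slide. Its size depended on single columns: it was -0.14 without KO_3 and -0.55 without KO_2. The probe was well above background on 5 of the 6 arrays.

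Dnmt3l, the cofactor without catalytic activity, gave a clear signal in every sample. Its probe A_51_P496720 had 10.35, 10.695 and 10.30 in KO columns, against 10.80, 10.72 and 11.04 in WT columns. It was well above background on all 6 arrays. Every KO column lay below every WT column, though KO_2 and WT_2 were separated by only a small gap. The difference was -0.40 ± 0.20 (95% interval -0.84 to 0.04), a ratio of 0.757, with an unadjusted p of 0.0694 and an adjusted p of 1.00 in limma. Within the first slide the difference was -0.30, and with 1 column left out it lay between -0.52 and -0.31.

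The maintenance enzyme Dnmt1 was read by 3 probes, all well above background. A_51_P195573 had 9.65, 9.77 and 10.51 in KO columns, against 10.22, 9.70 and 9.63 in WT columns. A single column on each side, KO_3 and WT_1, stood above the rest, and the difference was 0.13 ± 0.26 (95% interval -0.45 to 0.71). Without KO_3 it was -0.14, and within the first slide -0.08, so its sign depended on the columns used. A_52_P222496 had 9.41, 9.16 and 9.68 in KO columns, against 9.14, 9.29 and 8.92 in WT columns, a difference of 0.30 ± 0.21. A_52_P222501 had 9.78, 9.78 and 9.93 in KO columns, against 9.66, 9.89 and 9.42 in WT columns, a difference of 0.18 ± 0.20. Both gave their highest value in KO_3 and their lowest in WT_3. Without KO_3 the first of these was 0.17, and without WT_3 the second was 0.06. These 2 probes overlap in position, with r = 0.85 over the 6 columns, while the first probe lies 33.8 and 33.7 kb away and tracked them with r = 0.59 and r = 0.39.

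Uhrf1, which recruits Dnmt1 to half-methylated sites, was read by 2 probes with positive differences. A_51_P491742 had 8.89, 9.53 and 9.26 in KO columns, against 8.66, 8.17 and 9.30 in WT columns. WT_2 was the lowest column, and WT_3 lay above KO_1 and KO_3. The difference was 0.52 ± 0.29 (95% interval -0.11 to 1.15, limma unadjusted p = 0.0991), a ratio of 1.43, and 0.74 within the first slide. It was 0.25 without WT_2, 0.36 without KO_2 and 0.81 without WT_3. A_52_P314705 had 10.15, 10.53 and 11.02 in KO columns, against 10.54, 9.57 and 10.36 in WT columns, a difference of 0.41 ± 0.29 and of 0.23 within the first slide. WT_2 was again the lowest column, and KO_3 the highest. Leaving out WT_2 gave 0.12 and leaving out KO_3 gave 0.19, while 0.62 was reached without KO_1. The probes lie 0.044 kb apart and tracked each other with r = 0.73.

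Hells, the remodeller, was at the edge of detection. Its probe A_51_P351970 had 5.53, 5.54 and 5.76 in KO columns, against 5.71, 5.64 and 5.40 in WT columns. The values span the background level, 1 KO column and 1 WT column lay at or below it, and the probe was well above background on 2 of the 6 arrays. It was therefore not tested with the others, and its difference of 0.02 has no ratio that could be read.

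Chaf1a, the large subunit of CAF-1, gave 7.76, 7.79 and 6.50 in KO columns, against 7.17, 7.17 and 7.68 in WT columns (probe A_51_P196973). KO_3 was the lowest of all columns and the other KO columns were the highest. The difference of 0.02 ± 0.33 had the largest standard error among the members, with a 95% interval of -0.70 to 0.73. Chaf1b, the middle subunit, gave 8.14, 7.93 and 8.02 in KO columns, against 7.75, 7.92 and 7.96 in WT columns (probe A_51_P367310). Its columns lay close together, with a difference of 0.16 ± 0.18 (95% interval -0.25 to 0.56). Over the 6 columns these partners of one complex had r = 0.18.

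**Figure D3:**
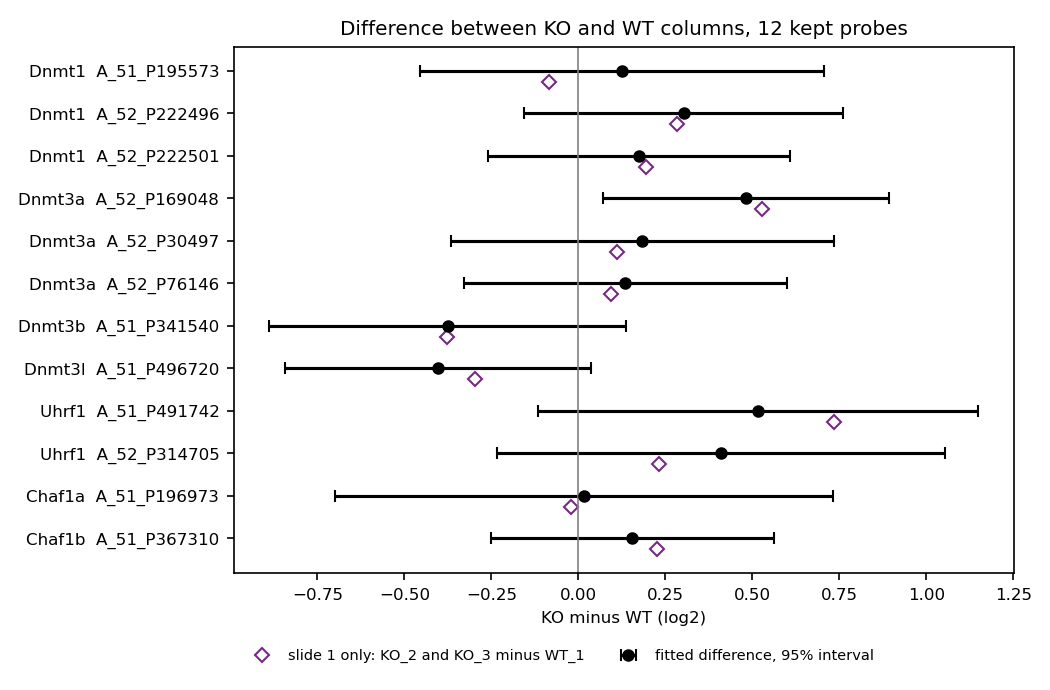
KO minus WT difference (log2) of the 12 kept member probes with 95% intervals from limma, and beside each the value within slide 1 (KO_2 and KO_3 minus WT_1) as an open diamond. All intervals except that of Dnmt3a probe A_52_P169048 (0.07 to 0.89) contain 0.

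KO_3 was the highest of the 6 columns for 6 of the 12 kept probes and the lowest for 3, and WT_2 was the lowest for 4. The probes highest in KO_3 belong to Dnmt1, Dnmt3a and Uhrf1 only, so they are not 6 separate genes. How often each column is the highest or lowest over all probes was not computed. The brightest probe of each gene was used to compare genes over the 6 columns. Dnmt1 tracked Uhrf1 with r = 0.73 and ran opposite to Chaf1a with r = -0.86. Dnmt3b tracked Dnmt3l with r = 0.85 and Chaf1a with r = 0.76, and Dnmt3a tracked Chaf1a with r = 0.76. These are descriptions over 6 columns that share a normalization, and 21 pairs were computed. They hold for the brightest probes only. Probes of the same gene could differ, as those of Dnmt3a did, with r of 0.38, 0.43 and -0.51 among themselves.

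**Figure D4:**
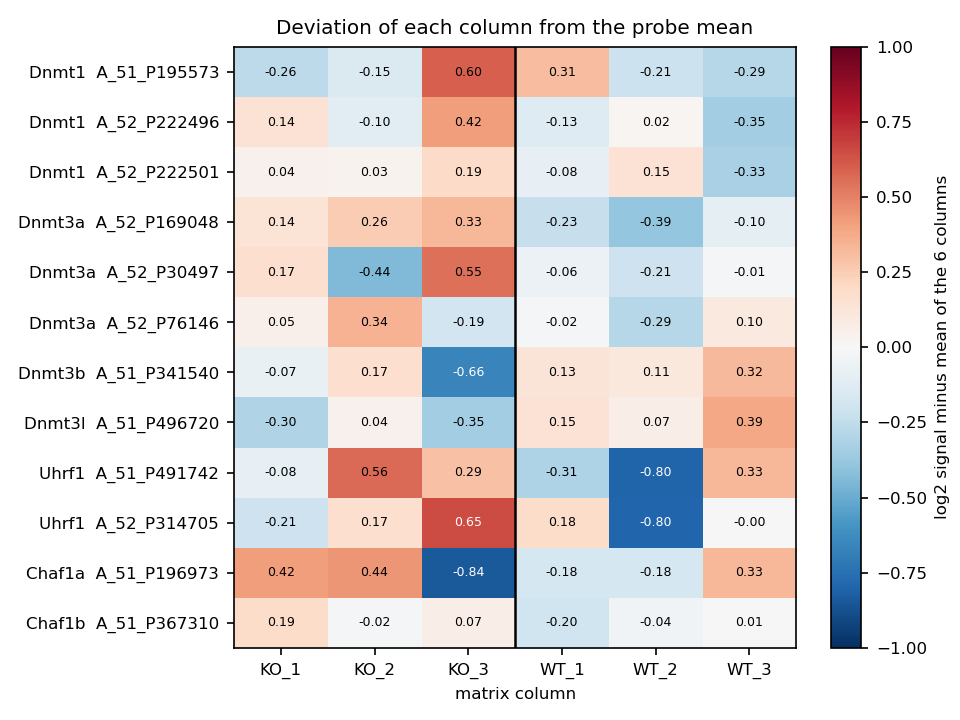
Deviation of each matrix column from the mean of the 6 columns (log2, colour scale from -1 to 1) for the 12 kept member probes, KO columns left of the line and WT columns right of it. KO_3 holds the highest value for 6 probes, all of Dnmt1, Dnmt3a or Uhrf1, and the lowest for 3, and WT_2 the lowest for 4.

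Since Dnmt1, Uhrf1 and CAF-1 work at replication forks, the members were set, by the brightest kept probe of each, against the S phase genes. The column medians of the S phase list ranged from 8.09 to 8.39 in KO columns and from 7.78 to 8.35 in WT columns. Among 7 members tested by these probes, Dnmt3a followed that median most closely, with Pearson's r = 0.79 (exact permutation p = 0.058, adjusted p = 0.39). Its Spearman's rho was 0.77 (exact permutation p = 0.103, adjusted p = 0.69). Uhrf1 came next (r = 0.71, exact permutation p = 0.112, adjusted p = 0.39; rho = 0.54, exact permutation p = 0.297, adjusted p = 0.69). The other members had r between 0.06 and 0.31, and none of the relations passed. Without WT_2 and KO_2, the columns farthest from the middle, r was 0.18 for Dnmt3a and 0.15 for Uhrf1. Leaving out the farthest columns narrows the range of the S phase median, which by itself can lower r. The lower values therefore cannot show whether the relations rest on those columns. The other probes of Dnmt3a and Uhrf1 were not tested, so the order of members holds for the probes used only. Uhrf1 probe A_51_P491742, not tested, had its lowest value in WT_2 and its highest in KO_2, as the S phase median did. Of the Dnmt3a probes not tested, A_52_P169048 was also lowest in WT_2. A_52_P30497 instead was lowest in KO_2 (8.32), where the S phase median was highest. WT_2 and KO_2 lie on different slides.

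The genes whose profile over the 6 columns was most like that of a member were named by Pearson's r among 16681 named genes, by the brightest kept probe. For Uhrf1 they were Gins3, a subunit of the replicative helicase complex, Cks1b, a partner of cyclin-dependent kinases, and Yeats2 (r = 0.996, 0.995 and 0.992). For Dnmt1 they were Cand1, Mospd4 and Fhl2 (r = 0.996, 0.996 and 0.991), and for Dnmt3a Slc16a7, Olfr257 and Tada1 (r = 0.993, 0.992 and 0.992). For Dnmt3l they were Tmigd1, Dscam and Rab9b (r = 0.989, 0.989 and 0.981), and for Dnmt3b Haus2, Nmbr and Saraf (r = 0.995, 0.993 and 0.992). Chaf1a was most like Fam160b1, Ankrd49 and Clk2 (r = 0.991, 0.989 and 0.988), and Chaf1b most like Ednra, Cd209d and Nuak1 (r = 0.990, 0.988 and 0.987). With 6 points such values are common: between 130 genes (Dnmt3l) and 436 genes (Dnmt1) had r over 0.9 with a member.

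The genes around the members in the pathway were counted by list, each gene by its brightest kept probe, and 0.183% of the 21309 genes or unnamed probes passed the test. No listed gene passed. Over all of them the median difference was -0.0047 and 49.2% were positive. Of 16 genes that oxidise or remove methylation, 11 were positive with a median of 0.08. They included the uracil glycosylase Ung at 0.26 ± 0.18 and the dioxygenase Tet1 at -0.51 ± 0.37 (SE, limma adjusted p = 1.00 each). Of 16 genes that supply the methyl donor, 10 were positive with a median of 0.03. Ahcyl2, related to the enzyme that hydrolyses S-adenosylhomocysteine, stood at -0.51 ± 0.21. Bhmt, which makes methionine from betaine, stood at 0.36 ± 0.18, and Mtap, which salvages methylthioadenosine, at -0.44 ± 0.33.

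Other partners of the methyltransferases were positive for 18 of 22 genes, with a median of 0.10. Dppa3, which in mouse oocytes and early embryos holds Uhrf1 away from DNA and so guards against methylation, had the largest difference of that list. It gave 11.38, 11.48 and 11.41 in KO columns, against 10.54, 10.45 and 10.79 in WT columns. All KO columns lay above all WT columns, and the difference was 0.83 ± 0.19 with a limma adjusted p of 0.231, short of the threshold. Asf1b, a histone chaperone that works with CAF-1, stood at 0.25 ± 0.20, and Ehmt2, a histone H3 lysine 9 methyltransferase, at 0.24 ± 0.20. Of the other readers of methylated DNA, 6 of 8 genes were measured, and Mbd2 and Mbd5 had no kept probe. Their median was -0.15 and 2 were positive. Zbtb4 stood at -0.25 ± 0.21 and Zbtb38 at -0.23 ± 0.22, both with limma adjusted p of 1.00.

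Some germline genes are kept silent in body cells by promoter methylation, a known task of these enzymes. Of 15 such genes 11 were measured, and 7 were positive with a median of 0.19. Tex19.1, which acts in the germ line and placenta, had 8.32, 7.50 and 8.51 in KO columns, against 6.73, 6.87 and 7.62 in WT columns. KO_2 lay below WT_3, so the groups overlapped, and the difference of 1.03 ± 0.31 had a limma adjusted p of 0.614. The Piwi protein gene Piwil1 stood at 0.31 ± 0.20 and the tubulin gene Tuba3a at 0.27 ± 0.23.

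In the matrix columns most cell cycle genes and most markers of other cells had positive differences, as most members did, and none passed the test. S phase genes were positive for 20 of 26 with a median of 0.19, among them Ccne2 at 0.47 ± 0.23, Fen1 at 0.52 ± 0.30 and Mcm7 at 0.31 ± 0.20. Mitotic genes were positive for 17 of 20 with a median of 0.24, among them Birc5 at 0.60 ± 0.24, Plk1 at 0.60 ± 0.26 and Ccnb1 at 0.46 ± 0.22. Thymocyte and T cell markers were positive for 16 of 19 measured genes of 20 listed, with a median of 0.41. For 7 of the 19 every KO column lay above every WT column, where 4.07% of all tested probes did so. This count was 4 of 12 for dendritic cell and macrophage markers, with 2 in the reverse order. It was 2 of 10 for B cell markers and 2 of 10 for cortical markers, with 1 cortical marker in the reverse order. Fibroblast and endothelial markers had 1 of 12, and mTEC markers 0 of 15 with 1 in the reverse order. The summed linear signal of the thymocyte list was 6861, 8299 and 7468 in KO columns, against 4280, 5633 and 5204 in WT columns. These sums did not overlap, and Cd8b1 at 0.97 ± 0.21, Dntt at 0.91 ± 0.20 and Cd3e at 0.84 ± 0.23 had the smallest p of the list (limma adjusted p = 0.182, 0.182 and 0.492). Both cell cycle lists depended on single columns and on the labels. Without WT_2, 11 of 20 mitotic genes were positive with a median of 0.07, and 16 of 26 S phase genes with a median of 0.07. With the slide as a block the mitotic list had 12 positive and a median of 0.04. That setting rests on KO_2 and KO_3 against WT_1 alone, since the other slide holds no matched KO column. By scanner titles, which also divide the arrays by slide, the mitotic list had 3 positive and a median of -0.36. The S phase list then had 11 positive and a median of -0.05. The thymocyte list had 16 of 19 positive by scanner titles, with a median of 0.33. Arrays titled KO include those matched to WT_2 and WT_3, so this does not back the positive values of the KO columns. In the matrix columns the thymocyte median was 0.21 without WT_1. Thymocytes divide and carry CD45, which the sort left out, and their part in the members' values was not tested.

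B cell markers were positive for 8 of 10 genes with a median of 0.22, and their summed linear signal was 9920 to 11398 in KO columns and 9092 to 9499 in WT columns. Fcrla stood at 1.12 ± 0.22 (limma adjusted p = 0.108), Blk at 0.44 ± 0.28 and Spib, which mTECs also express, at 0.41 ± 0.19. Dendritic cell and macrophage markers were positive for 8 of 12 measured genes of 14 listed, with Tyrobp at 0.70 ± 0.28, Itgax at 0.47 ± 0.20 and Mrc1 at -0.65 ± 0.33. Their sums overlapped, at 30325 to 32827 in KO columns and 31514 to 35321 in WT columns. Markers of cortical thymic epithelium were positive for 9 of 10 genes with a median of 0.22, and their sums were 55570 to 65842 in KO columns and 45477 to 49411 in WT columns. Prss16 stood at 0.52 ± 0.21, Ccl25 at 0.43 ± 0.21 and Ly75 at -0.27 ± 0.19. Fibroblast and endothelial markers were positive for 8 of 12 genes with a median of 0.13 and sums of 7191 to 12136 in KO columns and 6707 to 10047 in WT columns, with Kdr at 0.36 ± 0.20, Lum at 0.35 ± 0.25 and Col1a1 at -0.33 ± 0.23. The mTEC markers were positive for 7 of 15 with a median of -0.02, among them Cd86 at 0.31 ± 0.21, Cd40 at 0.31 ± 0.21 and Krt14 at -0.24 ± 0.18. By scanner titles 4 of 10 cortical and 3 of 12 fibroblast and endothelial markers were positive, and 7 of 10 B cell and 7 of 12 dendritic cell and macrophage markers. The B cell median was 0.10 without WT_1 and 0.33 without WT_3. No measured marker lay at or below the background level in all 6 columns. The part of these markers in the members' differences was not tested.

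**Figure D5:**
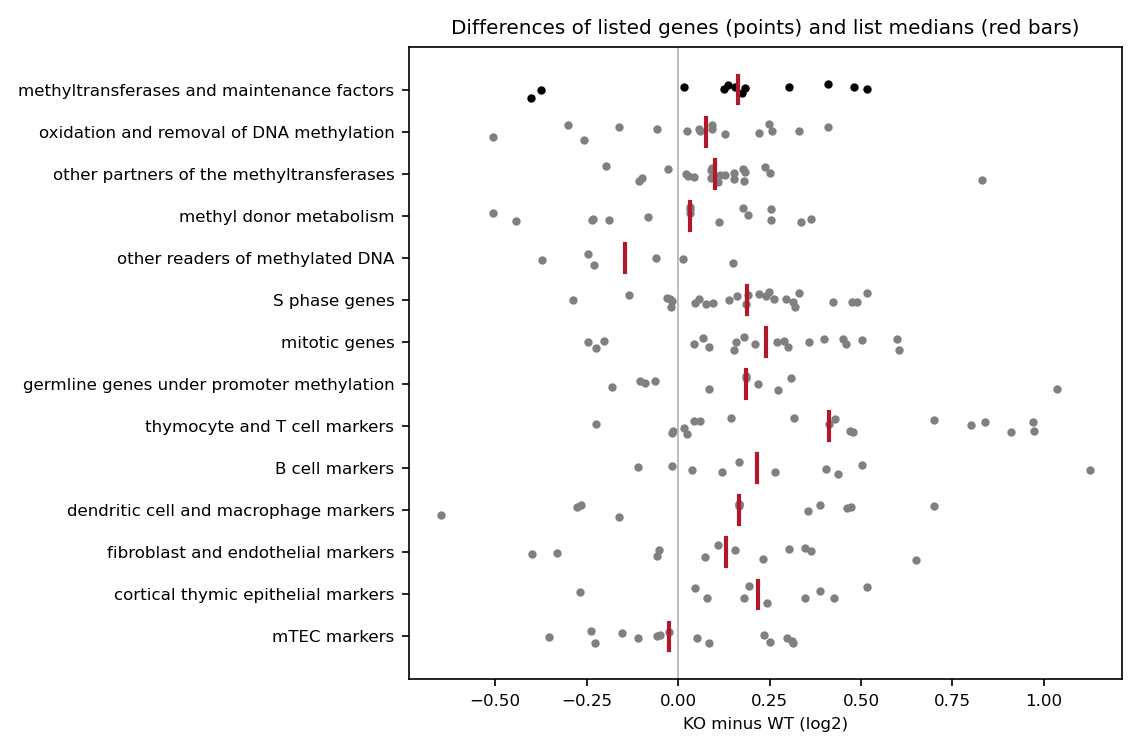
KO minus WT difference (log2) of the 12 kept member probes (black points) and of each measured gene of the 13 lists (grey points), with list medians as red bars. List medians run from -0.15 for other readers of methylated DNA to 0.41 for thymocyte and T cell markers, and none of the points shown passed the test.

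By FDR under 0.05 the authors' deposited table listed 26 probes, 23 higher and 3 lower in KO columns, and no member probe was among them. The authors' deposited table gave Dnmt3a probe A_52_P169048 a log2 ratio of 0.48 with an unadjusted p of 0.0120 and an FDR of 1.00, and Dnmt3l a log2 ratio of -0.40 with an unadjusted p of 0.0462 and an FDR of 1.00.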

How the data were processed

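Expression was measured on 1-colour Agilent arrays in 3 KO and 3 WT samples. Per the file headers, scanner intensities came from Agilent Feature Extraction 10.7.3.1 (10.6 per the submitters' processing notes), with the processed intensity background-subtracted. The authors deposited a matrix of log2 values per probe in 6 named columns, with their p-values and log2 ratios. The tool and the build of its coordinates were not given in the sources used here. Columns were grouped by name, and each array file by its title in the alternatives. Probes well above background on at least 3 of 6 arrays (32235) were fitted with limma 3.58.1 in R 4.3.3 (lmFit, eBayes, Benjamini-Hochberg adjustment, threshold 0.05). Outlier spots (397 to 1306 per array) were left out, and spots of 245 replicated probes averaged. With 3 samples a side, the smallest p of an exact permutation test is 0.1. P-values measure the spread between these samples, whose number limits precision. In simulated data on 32235 probes, the fit called 23% of 100 probes changed by 1 log2 unit and 88% of 100 changed by 2, with 6 false calls.

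Gene symbols were looked up in RefSeq by Entrez ID (33380 probes) or by accession (50), 2203 probes kept the symbol of the file and 5541 had none. Named genes are Mbd1, all members, up to 3 genes of smallest p per list, and the 3 genes most like each member, of which 2 list genes are not reported here. Members and lists were chosen with earlier results of these data known. Alternatives changed the probe filter, the probe summary, the variance moderation, the blocks, the samples and the source of values. The normexp alternative (offset 50) used median signals. Promoter windows are RefSeq's.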

Additional observations from a re-analysis of the deposited data

How the results depend on the processing

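No member probe passed the test under the main fit or any of the 16 alternatives (limma). The lowest adjusted p of a member was 0.667, without KO_2, and 0 to 3 member probes had an unadjusted p under 0.05. Of 32235 probes, 57 passed in the main fit. The count was 26 without the filter, 36 with the brightest probe per gene and 37 with the mean over probes of a gene. It was 97 with the replicate block, and 27 (without WT_2) to 81 (without KO_1) when 1 column was left out. WT_3 also mattered: without it 34 passed. With the slide block over the 5 matched columns limma called 0 (2123 at an unadjusted p under 0.05), with fewer samples. The replicate numbers do not pair the samples, since same-numbered deviations correlated at -0.29, -0.18 and -0.33, and the block changed no call on a member.

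With the scanner files grouped by title limma called 0 probes (1318 unadjusted), 0 with normexp (975) and 0 with the replicate block (950). These groupings turned the sign of 8 member probes, and they largely swap the genotypes of the matched columns, so this is no separate check. Title and slide also coincide over the arrays, so the 2 cannot be told apart there. By title, with or without the replicate block, and then with normexp, the KO minus WT values were -0.085 and -0.11 for Dnmt1 A_51_P195573, -0.11 and -0.21 for Dnmt3a A_52_P169048, -0.085 and -0.15 for A_52_P30497, and -0.12 and -0.19 for A_52_P76146. They were 1.12 and 0.22 for Dnmt3b, 0.21 and 0.15 for Dnmt3l, -0.30 and -0.31 for Uhrf1 A_51_P491742, and -0.31 and -0.29 for A_52_P314705. Among the other alternatives, the sign turned for Dnmt1 A_51_P195573 (-0.084) and Chaf1a (-0.020) with the slide block and within slide 1, which was chosen after seeing the data. Both settings give the same difference, KO_2 and KO_3 minus WT_1, since the second slide holds no matched KO column. Leaving out 1 column gave -0.14 (without KO_3) to 0.31 for Dnmt1 A_51_P195573, -0.047 (without KO_3) to 0.45 for Dnmt3a A_52_P30497, -0.0032 (without KO_2) to 0.27 for A_52_P76146 and -0.20 (without KO_2) to 0.44 for Chaf1a, which was also negative without KO_1, WT_1 or WT_2. The cause was not tested. The correlation of Dnmt3a, by its brightest probe, with S phase genes was 0.18 without WT_2 and KO_2. Of 208 recomputed list medians 29 had the opposite sign to the main value, 20 of them among the 39 taken by title. By title the sign turned for S phase, mitotic, cortical, fibroblast and endothelial, mTEC and other reader lists, and with normexp also for methyl donor and other partner genes. Dnmt3b and Hells are limited by their signal over background.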
